A study of Trametes versicolor with 12 samples.

Results

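The genes described here are 34 of the 14296 gene models measured in mycelium of Trametes versicolor, a white-rot basidiomycete, and they were chosen because their read counts were higher at 4 than at 2 weeks of culture in strain BRFM1218 and level with age in strain 1956-1252. The choice used the counts of all 12 libraries. Each count was taken per 1000000 of the reads in its library (CPM), the 3 libraries of a group were averaged, 1 was added, and the 4-week value was divided by the 2-week value. That ratio, called the age ratio here, had to be 4 or more in BRFM1218 and from 0.8 to 1/0.8 in 1956-1252, and the mean had to reach 5 CPM in at least 1 age of each strain. The age ratios, and the difference of the ageing response between strains, are therefore the criterion and not a finding, and they are given as values with no test.

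Both strains were grown on agar with 4% malt, and RNA came from 3 cultures of each strain at each age, which gives 4 groups of 3 libraries: BRFM1218 at 2 weeks, BRFM1218 at 4 weeks, and 1956-1252 (from the NIBIO collection) at 2 weeks and at 4 weeks. The labels give no other treatment and no genetic change. A difference between strains is a difference between these 2 strains only. The labels name no cell type, and no marker of a tissue or cell type was available to check.

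White-rot fungi break down lignin as well as cellulose in wood, with secreted peroxidases and laccases. On an agar plate the colony spreads from a margin of growing hyphae, while older hyphae behind the margin meet a medium that has been used for longer. A harvest of mycelium can mix these zones, and the read count of a gene is then a mean over them. In such bulk RNA a change in the number of cells that express a gene and a change in the amount of RNA per cell cannot be told apart.

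The libraries held 31763162 to 74647672 reads assigned to genes, of which 98.7 to 99.17% were counted as unique. All 34 genes passed the filter on low counts, which kept 12648 models. The lowest count of any of the 34 in any library was 20 reads, in BRFM1218 at 2 weeks, and the lowest in the other groups was 159, 214 and 248 reads. In 33 of them at least 99% of the reads were unique, and the lowest share was 97.9% in TRAVEDRAFT_69438. Levels below are CPM after scaling of the libraries by trimmed means of M values (TMM), as means ± SD over 3 libraries, and single values are given in the order of replicates 1, 2 and 3. Age ratios keep the unscaled CPM of the criterion, and so does its floor of 5 CPM. Printed levels can therefore lie under 5 CPM at both ages of 1956-1252, as in TRAVEDRAFT_69438, TRAVEDRAFT_173904 and TRAVEDRAFT_29435. All 34 genes carry a RefSeq locus tag and none a gene symbol or a description, so no function is given to any of them.

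Within BRFM1218, the median level of the 34 genes was 14.0 CPM at 2 weeks and 84.0 CPM at 4 weeks. In 1956-1252 the median was 15.4 CPM at 2 weeks and 14.99 CPM at 4 weeks. The age ratio in BRFM1218 had a median of 5.46 and a range from 4.00 to 37.6, with 18 genes at 5 or more and 6 genes at 10 or more. In 1956-1252 it ran from 0.805 to 1.24 with a median of 1.08, above 1 in 20 genes and below 1 in 14. Over the 8418 models that met the same level floor in both strains the medians were 1.03 and 1.02. Of these models 1.01% had a ratio of 4 or more in BRFM1218, which is 85 genes, and 63.8% had a ratio within that window in 1956-1252. Of the 85 genes, 34 lay within the window, 40 above it and 11 below it.

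**Figure D1:**
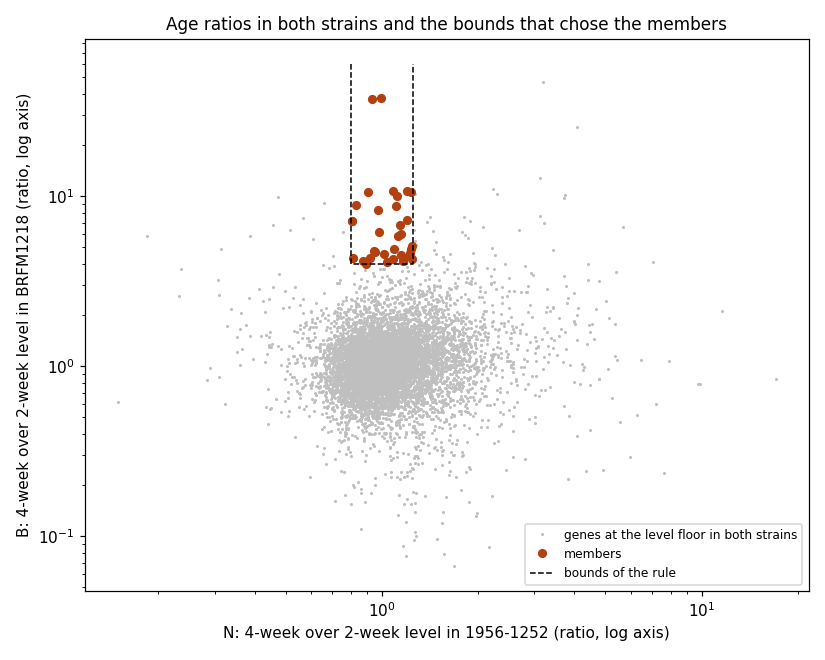
Age ratio (4 weeks over 2 weeks, 1 CPM added to each mean, log axes) in BRFM1218 against 1956-1252 for the 8418 gene models at the level floor, with the 34 genes marked. The 34 fill the window that chose them, from 4.00 to 37.6 in BRFM1218 and from 0.805 to 1.24 in 1956-1252.

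The 3 libraries of each age in BRFM1218 did not overlap in any of the 34 genes. The same held for 71.2% of the models at the floor, and the criterion used these libraries, so nothing is read from that count. In 1956-1252 the libraries of the ages did not overlap in 15 of the 34 genes, with 8 higher and 7 lower at 4 weeks, against 72.1% of the models at the floor. Level within the window thus includes small shifts in both directions. TRAVEDRAFT_144883 had 109.9, 111 and 114 CPM at 2 weeks and 136, 133 and 134 CPM at 4 weeks in 1956-1252, and TRAVEDRAFT_53315 had 85.2, 83.1 and 67.8 CPM and then 61.3, 59.6 and 61.9 CPM. The first sits near the upper bound of the window with an age ratio of 1.24 and the second at its lower bound with 0.805.

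Summed over the 34 genes, the share of all reads was 0.0898, 0.0898 and 0.0890% in the libraries of BRFM1218 at 2 weeks and 0.603, 0.615 and 0.603% at 4 weeks. In 1956-1252 the share was 0.170, 0.168 and 0.142% at 2 weeks and 0.153, 0.163 and 0.168% at 4 weeks. At 2 weeks the 34 genes thus took a smaller share in BRFM1218 than in 1956-1252, and at 4 weeks a larger one, with no overlap of the libraries. These shares are not TMM-scaled. Their rise in BRFM1218 and their level course in 1956-1252 are set by the criterion, and nothing is read from the change of order. A few genes carry most of the share: the 5 most-read genes held 65.5% of the reads in BRFM1218 at 2 weeks, 58.6% at 4 weeks, and 55.3% at either age in 1956-1252. In BRFM1218 at 4 weeks these were TRAVEDRAFT_28514 with 15.6%, TRAVEDRAFT_47268 with 13.0%, TRAVEDRAFT_140767 with 12.8%, TRAVEDRAFT_29273 with 9.83% and TRAVEDRAFT_174536 with 7.41%.

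The largest age ratios in BRFM1218 were far from the rest. TRAVEDRAFT_47268 had 25.9, 21.8 and 24.9 CPM at 2 weeks and 965, 945 and 921 CPM at 4 weeks in BRFM1218, an age ratio of 37.6, and 11.1, 10.3 and 10.53 CPM and then 10.1, 9.88 and 10.6 CPM in 1956-1252. TRAVEDRAFT_153876 had 8.24, 8.24 and 5.66 CPM and then 307, 336 and 300.3 CPM in BRFM1218, a ratio of 37.1, and 10.53, 10.8 and 9.10 CPM and then 8.14, 9.34 and 9.77 CPM in 1956-1252. In both genes the 3 libraries of BRFM1218 at 4 weeks stood far above the other 9 libraries. The next 4 genes had ratios between 10 and 11: TRAVEDRAFT_69438 with 10.8, TRAVEDRAFT_31851 with 10.7, TRAVEDRAFT_173904 with 10.6 and TRAVEDRAFT_29273 with 10.52.

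Those 4 genes differed in how the strains compared at 2 weeks. TRAVEDRAFT_29273 had 72.2, 64.0 and 66.3 CPM at 2 weeks and 734, 679 and 727 CPM at 4 weeks in BRFM1218, with 16.7, 17.1 and 19.2 CPM and then 15.4, 15.03 and 15.6 CPM in 1956-1252. TRAVEDRAFT_31851 had 21.3, 22.7 and 18.0 CPM and then 226, 233 and 234 CPM in BRFM1218, with 19.5, 19.7 and 21.2 CPM and then 20.5, 21.2 and 21.6 CPM in 1956-1252. At 2 weeks the strains overlapped in the second gene and were well apart in the first. TRAVEDRAFT_69438 had 5.55, 7.27 and 7.27 CPM and then 76.1, 95.0 and 78.3 CPM in BRFM1218 and 3.95, 4.09 and 3.18 CPM and then 4.02, 4.84 and 4.60 CPM in 1956-1252. TRAVEDRAFT_173904 had 20.1, 23.8 and 22.4 CPM and then 240.2, 281 and 212 CPM in BRFM1218 and 3.18, 3.93 and 3.0 CPM and then 3.72, 4.22 and 4.66 CPM in 1956-1252. The libraries of 1956-1252 were below all BRFM1218 libraries in both of these genes, at either age.

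The next 4 genes had ratios between 8 and 10. TRAVEDRAFT_29435, with a ratio of 9.98, had 2.85, 1.97 and 3.92 CPM at 2 weeks and 42.5, 42.4 and 33.4 CPM at 4 weeks in BRFM1218, and 3.31, 4.12 and 4.00 CPM and then 3.87, 4.00 and 4.73 CPM in 1956-1252. TRAVEDRAFT_25391, with 8.89, had 31.1, 35.7 and 32.7 CPM and then 301, 295 and 307 CPM, and 37.9, 37.2 and 32.7 CPM and then 28.2, 28.9 and 28.8 CPM in 1956-1252. TRAVEDRAFT_62539, with 8.81, had 10.3, 8.98 and 6.67 CPM and then 77.6, 107 and 70.0 CPM, and 7.42, 8.62 and 5.59 CPM and then 7.63, 6.86 and 8.83 CPM in 1956-1252. In all 3 the 2-week libraries of the strains overlapped, and the 4-week libraries of BRFM1218 were above every other library. TRAVEDRAFT_130193, with 8.26, followed another pattern. It had 4.71, 3.62 and 3.16 CPM and then 39.5, 44.6 and 36.0 CPM in BRFM1218, and 38.9, 40.01 and 31.7 CPM and then 31.3, 33.5 and 38.7 CPM in 1956-1252, so that BRFM1218 at 4 weeks overlapped both groups of the other strain and BRFM1218 at 2 weeks stood alone.

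**Figure D2:**
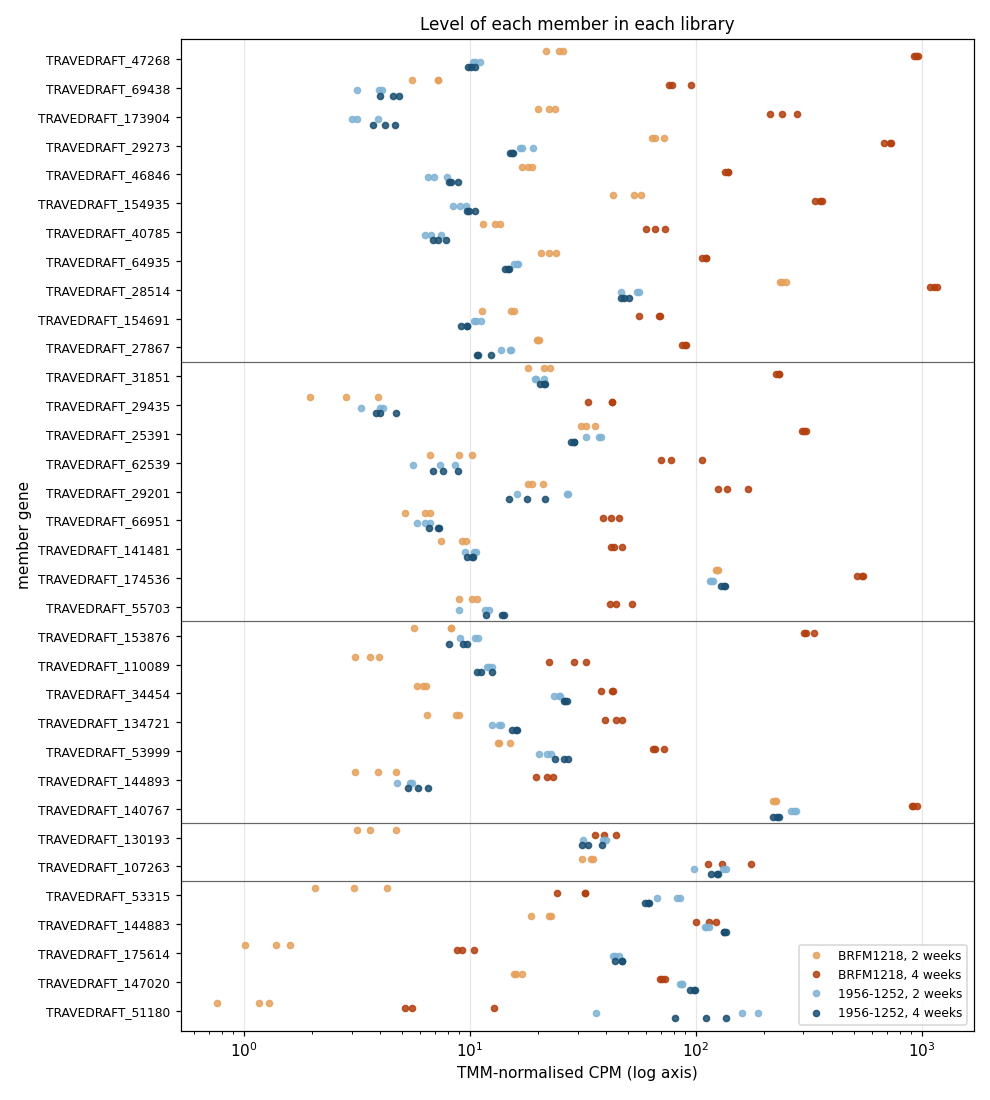
Level (TMM-normalised CPM, log axis) of each of the 34 genes in each of the 12 libraries, with 1 point per library and the groups by colour. In BRFM1218 the 4-week libraries lie above the 2-week libraries in every gene, whose means the criterion required to differ, while their place relative to 1956-1252 differs from gene to gene: far above it in TRAVEDRAFT_47268 (944 against 10.2 CPM) and below it in TRAVEDRAFT_51180 (7.85 against 109 CPM).

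Of the 5 genes with the most reads in BRFM1218 at 4 weeks, TRAVEDRAFT_47268 and TRAVEDRAFT_29273 are described above, and the other 3 had age ratios under 5. TRAVEDRAFT_28514 had 241, 237 and 252 CPM at 2 weeks and 1132, 1093 and 1175 CPM at 4 weeks in BRFM1218, and 56.4, 54.7 and 46.8 CPM and then 46.5, 50.7 and 48.0 CPM in 1956-1252. TRAVEDRAFT_140767 had 226, 219.5 and 224 CPM and then 906, 958 and 920.1 CPM, and 273, 277 and 265 CPM and then 220.3, 229 and 235 CPM in 1956-1252. TRAVEDRAFT_174536 had 123, 126 and 124 CPM and then 545, 552 and 519 CPM, and 115, 117 and 119 CPM and then 129, 133 and 135 CPM in 1956-1252. Already at 2 weeks these 3 genes were the most-read of the 34 in BRFM1218. In the last pair the strains were close at 2 weeks, while TRAVEDRAFT_28514 was higher in every BRFM1218 library than in any library of 1956-1252.

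Levels of different genes were set side by side only per length, with the RPKM values of the deposited files. The median RPKM of the 34 genes was 8.14 in young and 69.3 in old BRFM1218 cultures, and 17.3 and 18.5 in those of 1956-1252. RPKM values are not TMM-scaled, and the TMM factors were 0.819 to 0.846 in BRFM1218 and 1.18 to 1.23 in 1956-1252. They therefore place 1956-1252 higher relative to BRFM1218 than the CPM levels do, and the strains are not compared by them. The median RPKM corresponds to percentiles of 18.2, 75.0, 30.8 and 30.9 in those groups among the models at the floor. The gene models had a median length of 1051.5 bases and a range from 258 to 4088 bases, against a median of 1446 bases at the floor. Within a strain the order of the genes was much the same at the 2 ages, with a Spearman rho over the 34 genes of 0.87 in BRFM1218 and 0.98 in 1956-1252. Between the strains it was not, with 0.29 at 2 weeks and 0.23 at 4 weeks. These rho values are across genes that share libraries and are a description. The narrow window for 1956-1252 keeps the order of its genes nearly fixed, so the value of 0.98 is set by the criterion. Nothing is read from its contrast with the values between strains.

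In BRFM1218 at 4 weeks the highest RPKM values belonged to TRAVEDRAFT_28514 (1232), TRAVEDRAFT_47268 (751), TRAVEDRAFT_140767 (498), TRAVEDRAFT_154935 (390.3) and TRAVEDRAFT_46846 (373). The highest in 1956-1252 at 4 weeks were TRAVEDRAFT_51180 (520.0), TRAVEDRAFT_107263 (348), TRAVEDRAFT_144883 (204), TRAVEDRAFT_140767 (179) and TRAVEDRAFT_53315 (112). Of these 10 places TRAVEDRAFT_140767 alone held 1 in each strain. TRAVEDRAFT_51180 was in place 29 in BRFM1218 and in place 1 in 1956-1252, TRAVEDRAFT_173904 was in place 9 and in place 33, and TRAVEDRAFT_47268 in place 2 and in place 21.

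The strain difference at each age is a contrast that the criterion did not use directly, and it was tested for all 12648 models with edgeR's quasi-likelihood test and Benjamini-Hochberg adjustment (called at an adjusted p under 0.05). It shares libraries with the criterion, which asked for a 2-week level in BRFM1218 well under the 4-week level and for a floor in 1956-1252, and the fall of the difference from 2 to 4 weeks is set by the choice. Levels are compared between strains as counted. Whether reads of both strains aligned equally well to the reference, which the sources used here do not name, was not tested. At 2 weeks 14 of the 34 genes were higher in 1956-1252, 11 were higher in BRFM1218 and 9 were not called. Over all models 44.4% were higher in 1956-1252 and 40.4% in BRFM1218, 84.7% in all, so the counts at 2 weeks are near the background. With libraries scaled by size alone, or by upper quartiles, 22 of the 34 were called higher in 1956-1252 at 2 weeks.

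At 4 weeks 27 of the 34 genes were higher in BRFM1218, 5 were higher in 1956-1252 and 2 were not called. Over all models 40.6% were higher in BRFM1218 and 44.9% in 1956-1252, 85.5% in all. The criterion used the same 4-week libraries of BRFM1218 and asked for a raised level in them. The count at 4 weeks is therefore tilted by the choice, and nothing particular to the 34 genes is read from it. The same limit holds for the 4-week calls and p-values of single genes below, which describe their levels. A gene that is close between strains, or higher in BRFM1218, at 2 weeks has to be higher in BRFM1218 at 4 weeks under the criterion. The median log2 difference of the 34 genes, 1956-1252 minus BRFM1218, was 0.18 at 2 weeks and -2.67 at 4 weeks, against 0.09 and 0.11 over all tested models. With scaling by library size alone those medians over all models were 0.60 and 0.66, and the share of called models that were higher in 1956-1252 was 67.9% at 2 weeks and 68.8% at 4 weeks in place of 52.4% and 52.6%. With upper quartiles the medians were 0.39 and 0.40 and the shares 61.9 and 61.8%, so these scalings move the 34 genes and all models the same way. With library size alone the 34 genes had 26 called higher in BRFM1218 at 4 weeks and 7 in 1956-1252. The libraries of the strains did not overlap in 26 of the 34 genes at 2 weeks and in 32 at 4 weeks, against 87.8 and 87.9% of the models at the floor.

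**Figure D3:**
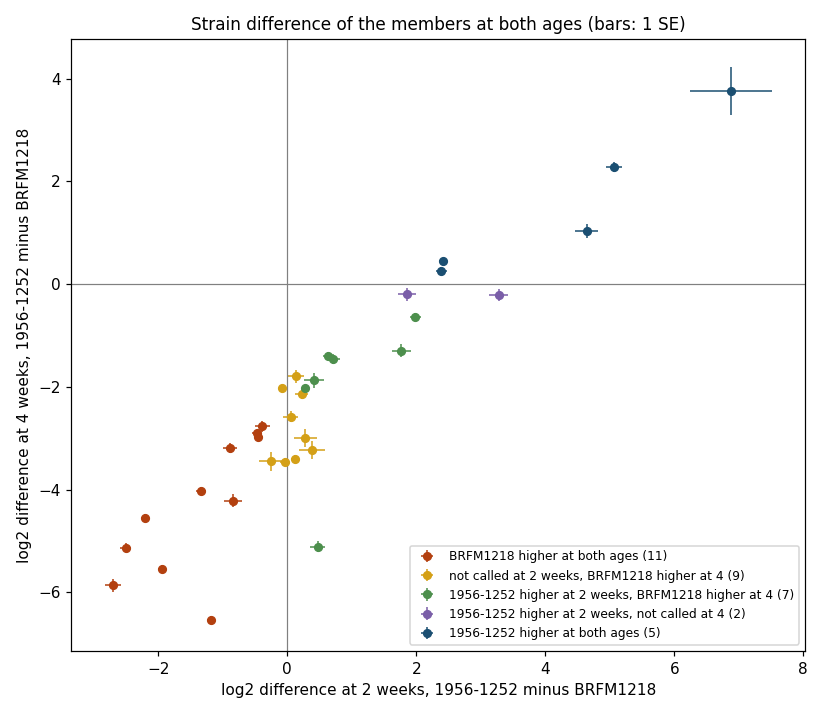
Log2 strain difference (1956-1252 minus BRFM1218, ± SE, edgeR) of each of the 34 genes at 2 weeks and at 4 weeks, where values under 0 are higher in BRFM1218. At 2 weeks the genes spread to both sides of 0, from -2.71 to 6.87, and at 4 weeks 27 lie under 0 past the test's threshold and 5 above it, while TRAVEDRAFT_130193 and TRAVEDRAFT_107263 are near 0 and turn to the other side when libraries are scaled by size alone.

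In 11 genes BRFM1218 was higher at both ages. Their difference ran from -2.71 to -0.39 at 2 weeks and from -6.53 to -2.77 at 4 weeks. The largest at 4 weeks was in TRAVEDRAFT_47268, with -6.53 ± 0.06 (SE, adjusted p = 2.28e-21), after -1.18 ± 0.06 (SE, adjusted p = 4.21e-12) at 2 weeks. TRAVEDRAFT_173904 followed with -5.86 ± 0.13 (SE, adjusted p = 2.12e-17) at 4 weeks and had the largest at 2 weeks, -2.71 ± 0.12 (SE, adjusted p = 8.11e-13). TRAVEDRAFT_29273 had -1.94 ± 0.06 (SE, adjusted p = 3.44e-15) at 2 weeks and -5.54 ± 0.07 (SE, adjusted p = 1.76e-20) at 4 weeks. These 3 genes were thus the ones furthest above the other strain in old mycelium, and each was above it in young mycelium too.

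TRAVEDRAFT_154935 belongs to the same 11 genes, with 43.2, 57.5 and 53.4 CPM at 2 weeks and 356, 337 and 361 CPM at 4 weeks in BRFM1218 and 9.09, 9.59 and 8.47 CPM and then 10.52, 9.68 and 9.98 CPM in 1956-1252. Its difference was -2.51 ± 0.09 (SE, adjusted p = 1.65e-14) at 2 weeks and -5.13 ± 0.09 (SE, adjusted p = 2.27e-18) at 4 weeks. TRAVEDRAFT_28514, the most-read gene in BRFM1218, had -2.21 ± 0.06 (SE, adjusted p = 8.47e-16) and then -4.55 ± 0.07 (SE, adjusted p = 2.31e-19). In both genes every BRFM1218 library was above every library of 1956-1252. TRAVEDRAFT_69438 had -0.84 ± 0.14 (SE, adjusted p = 2.17e-05) and then -4.21 ± 0.13 (SE, adjusted p = 3.01e-15). TRAVEDRAFT_40785 had 13.0, 13.6 and 11.4 CPM and then 66.0, 72.8 and 60.4 CPM in BRFM1218 and 7.43, 6.33 and 6.77 CPM and then 7.21, 6.85 and 7.82 CPM in 1956-1252, a difference of -0.89 ± 0.10 (SE, adjusted p = 3.49e-07) at 2 weeks and -3.19 ± 0.10 (SE, adjusted p = 5.13e-15) at 4 weeks.

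The other 4 of the 11 were not chosen by the naming rule and are given so that each gene is accounted for. TRAVEDRAFT_46846 had 19.0, 17.1 and 18.2 CPM at 2 weeks and 139, 135 and 139 CPM at 4 weeks in BRFM1218, and means of 7.14 ± 0.712 and 8.41 ± 0.403 CPM in 1956-1252. TRAVEDRAFT_64935 had means of 22.4 ± 1.72 and 109 ± 2.90 CPM in BRFM1218 and of 16.1 ± 0.316 and 14.6 ± 0.307 CPM in 1956-1252. TRAVEDRAFT_154691 had 14.1 ± 2.42 and 64.7 ± 7.62 CPM, and 10.8 ± 0.419 and 9.50 ± 0.322 CPM in 1956-1252. TRAVEDRAFT_27867 had 20.0 ± 0.197 and 89.1 ± 2.16 CPM, and 14.7 ± 0.790 and 11.3 ± 0.906 CPM in 1956-1252. In the last 3 the 2-week difference was small (-0.47, -0.39 and -0.45), and it changed sign with libraries scaled by size alone.

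In 9 genes the strains were not called different at 2 weeks and BRFM1218 was higher at 4 weeks, where the criterion sets the direction. Their difference ran from -0.25 to 0.38 at 2 weeks, with adjusted p-values from 0.0569 to 0.684, and from -3.45 to -1.80 at 4 weeks. TRAVEDRAFT_31851 had -0.04 ± 0.07 (SE, adjusted p = 0.615) at 2 weeks and -3.45 ± 0.07 (SE, adjusted p = 1.74e-17) at 4 weeks. TRAVEDRAFT_62539 had -0.25 ± 0.19 (SE, adjusted p = 0.230) and then -3.45 ± 0.18 (SE, adjusted p = 6.07e-12). TRAVEDRAFT_25391 had 0.12 ± 0.06 (SE, adjusted p = 0.0959) and then -3.39 ± 0.06 (SE, adjusted p = 5.08e-18), and TRAVEDRAFT_29435 had 0.38 ± 0.20 (SE, adjusted p = 0.0779) and then -3.23 ± 0.17 (SE, adjusted p = 9.32e-12). The young cultures of the strains were thus close in these genes, and a p that misses the threshold does not show that they were equal. The lack of a call depended on the setting in 8 of the 9, all but TRAVEDRAFT_62539, which were called higher in 1956-1252 with library size alone and with upper quartiles.

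TRAVEDRAFT_174536 has the most reads of the 9 genes. Its 2-week libraries did not overlap between the strains, yet the difference was only -0.08 ± 0.04 (SE, adjusted p = 0.0591), and at 4 weeks it was -2.02 ± 0.04 (SE, adjusted p = 8.78e-18). TRAVEDRAFT_55703, which sits next to the upper bound of the window, had 10.2, 10.7 and 8.94 CPM at 2 weeks and 44.4, 52.4 and 41.6 CPM at 4 weeks in BRFM1218 and 11.7, 12.1 and 8.94 CPM and then 11.8, 14.1 and 14.0 CPM in 1956-1252. The remaining 3 genes of the 9 had BRFM1218 means of 19.3 ± 1.49 and 145 ± 22.7 CPM (TRAVEDRAFT_29201), 6.07 ± 0.777 and 42.2 ± 3.50 CPM (TRAVEDRAFT_66951), and 8.80 ± 1.14 and 44.3 ± 2.49 CPM (TRAVEDRAFT_141481). Their means in 1956-1252 were 23.5 ± 6.27 and 18.1 ± 3.37 CPM, 6.27 ± 0.417 and 7.05 ± 0.387 CPM, and 10.2 ± 0.589 and 10.1 ± 0.354 CPM in the same order. Each of these 3 was therefore near the level of the other strain at 2 weeks and several-fold above it at 4 weeks.

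At 2 weeks 5 of these 9 genes were also called when 1 library was left out. TRAVEDRAFT_141481 (adjusted p = 0.0569) was called higher in 1956-1252 when any 1 of 6 libraries was left out, at adjusted p-values from 0.0216 to 0.048, and with DESeq2 (adjusted p = 0.0277), size factors by relative log expression (0.0398) and no filter on low counts (0.0459). TRAVEDRAFT_29435 was called higher in 1956-1252 without BRFM1218 2-week replicate 3 (0.68, adjusted p = 0.00477), without 1956-1252 2-week replicate 1 (0.49, adjusted p = 0.0403) and with DESeq2 (0.40, adjusted p = 0.0400). TRAVEDRAFT_25391 was called so without BRFM1218 2-week replicate 2 (0.19, adjusted p = 0.0156) and without 1956-1252 2-week replicate 3 (0.18, adjusted p = 0.00901), and TRAVEDRAFT_29201 without the latter library (0.49, adjusted p = 0.0037). TRAVEDRAFT_174536 was called higher in BRFM1218 without 1956-1252 2-week replicate 3 (-0.09, adjusted p = 0.049) and when any 1 of the 4-week libraries of 1956-1252 was left out (-0.13 in each case, adjusted p from 0.00689 to 0.00913). These 5 genes are thus at the edge of a 2-week call, and TRAVEDRAFT_31851, TRAVEDRAFT_62539, TRAVEDRAFT_66951 and TRAVEDRAFT_55703 stayed uncalled whichever single library was left out.

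In 7 genes the order of the strains changed with age: 1956-1252 was higher at 2 weeks and BRFM1218 at 4 weeks. Their difference ran from 0.28 to 1.99 at 2 weeks and from -5.11 to -0.64 at 4 weeks. TRAVEDRAFT_153876 had 0.47 ± 0.12 (SE, adjusted p = 0.00144) at 2 weeks and -5.11 ± 0.11 (SE, adjusted p = 2.04e-17) at 4 weeks. TRAVEDRAFT_140767 had 0.28 ± 0.04 (SE, adjusted p = 4.27e-06) and then -2.03 ± 0.04 (SE, adjusted p = 1.06e-17). TRAVEDRAFT_53999 had 13.4, 13.4 and 15.01 CPM at 2 weeks and 65.0, 72.6 and 66.4 CPM at 4 weeks in BRFM1218 and 22.9, 22.1 and 20.2 CPM and then 23.9, 26.1 and 27.2 CPM in 1956-1252, a difference of 0.64 ± 0.08 (SE, adjusted p = 1.64e-06) and then -1.40 ± 0.08 (SE, adjusted p = 1.44e-11). In all 3 genes the libraries of the strains were apart at both ages, in opposite order.

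The other 4 of the 7 lie outside the naming rule. TRAVEDRAFT_34454 had 6.23, 6.40 and 5.85 CPM at 2 weeks and 42.7, 42.9 and 38.0 CPM at 4 weeks in BRFM1218, and 23.5, 24.97 and 24.8 CPM and then 26.2, 26.4 and 27.0 CPM in 1956-1252. TRAVEDRAFT_110089 had 3.11, 3.62 and 3.98 CPM and then 32.7, 29.1 and 22.5 CPM, and 11.9, 12.6 and 12.2 CPM and then 11.2, 12.5 and 10.8 CPM in 1956-1252. Both started several-fold under the other strain. TRAVEDRAFT_134721 had means of 8.05 ± 1.39 and 43.8 ± 3.89 CPM, and 13.2 ± 0.614 and 15.9 ± 0.413 CPM in 1956-1252. TRAVEDRAFT_144893 had 3.92 ± 0.813 and 21.7 ± 1.88 CPM, and 5.26 ± 0.439 and 5.94 ± 0.607 CPM in 1956-1252, and its 2-week call (adjusted p = 0.0205) was lost without BRFM1218 2-week replicate 1 (adjusted p = 0.0898) and without 1956-1252 2-week replicate 2 (adjusted p = 0.055). At 4 weeks the call of TRAVEDRAFT_34454 (-0.64 ± 0.07 (SE, adjusted p = 3.07e-07)) was lost with libraries scaled by size alone, at -0.09 and an adjusted p of 0.271.

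In TRAVEDRAFT_130193 and TRAVEDRAFT_107263 1956-1252 was higher at 2 weeks and the strains were not called different at 4 weeks. TRAVEDRAFT_130193 had 3.28 ± 0.14 (SE, adjusted p = 5.16e-13) and then -0.22 ± 0.12 (SE, adjusted p = 0.0887). TRAVEDRAFT_107263 had 35.3, 34.2 and 31.5 CPM at 2 weeks and 131, 175 and 114 CPM at 4 weeks in BRFM1218, and 136, 132 and 98.0 CPM and then 117, 125 and 125 CPM in 1956-1252, a difference of 1.86 ± 0.14 (SE, adjusted p = 7.34e-10) and then -0.19 ± 0.13 (SE, adjusted p = 0.161). At 4 weeks the BRFM1218 libraries of both genes overlapped those of the other strain. Without BRFM1218 4-week replicate 3 both were called higher in BRFM1218, at -0.29 (adjusted p = 0.0339) and -0.32 (adjusted p = 0.0196), and TRAVEDRAFT_130193 was also called without 1956-1252 4-week replicate 3, at -0.32 (adjusted p = 0.0279).

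In 5 genes 1956-1252 was higher at both ages, so that even the raised 4-week level of BRFM1218 stayed below the level of the other strain. TRAVEDRAFT_147020 had 16.1, 17.03 and 15.8 CPM at 2 weeks and 69.7, 72.8 and 70.6 CPM at 4 weeks in BRFM1218, and 87.3, 87.1 and 85.6 CPM and then 94.4, 97.9 and 99.8 CPM in 1956-1252, a difference of 2.41 ± 0.06 (SE, adjusted p = 8.14e-17) and then 0.45 ± 0.05 (SE, adjusted p = 2.13e-07). TRAVEDRAFT_144883 had 22.5, 18.6 and 22.9 CPM and then 123, 101 and 114 CPM in BRFM1218, a difference from the 1956-1252 values above of 2.39 ± 0.08 (SE, adjusted p = 1.09e-14) and then 0.25 ± 0.07 (SE, adjusted p = 0.00348). TRAVEDRAFT_53315 had 3.08, 2.07 and 4.30 CPM and then 24.3, 32.5 and 32.3 CPM in BRFM1218, a difference of 4.64 ± 0.18 (SE, adjusted p = 5.59e-14) and then 1.04 ± 0.13 (SE, adjusted p = 1.29e-06). In these 3 genes the 4-week libraries of BRFM1218 came closest to 1956-1252 in TRAVEDRAFT_144883 and stayed furthest below it in TRAVEDRAFT_53315.

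The 2 largest differences of this kind were in genes under 5 CPM in BRFM1218 at 2 weeks. TRAVEDRAFT_175614 had 1.60, 1.39 and 1.01 CPM at 2 weeks and 10.45, 9.22 and 8.80 CPM at 4 weeks in BRFM1218, and 43.8, 43.1 and 46.0 CPM and then 47.3, 47.3 and 44.0 CPM in 1956-1252, a difference of 5.07 ± 0.12 (SE, adjusted p = 1.51e-16) and then 2.28 ± 0.09 (SE, adjusted p = 1.78e-13). TRAVEDRAFT_51180 had 0.760, 1.16 and 1.30 CPM and then 5.18, 12.9 and 5.53 CPM in BRFM1218, and 188, 159.6 and 36.4 CPM and then 81.3, 112 and 136 CPM in 1956-1252, a difference of 6.87 ± 0.64 (SE, adjusted p = 1.85e-08) and then 3.76 ± 0.47 (SE, adjusted p = 8.52e-07). The strains did not overlap in either gene at either age. In TRAVEDRAFT_51180 the libraries of a group were wide apart, and its place among the 34 genes, with an age ratio of 4.00 in BRFM1218 at the bound of 4, was lost when any 1 of 4 libraries was left out: BRFM1218 2-week replicate 1, BRFM1218 4-week replicate 2, 1956-1252 2-week replicate 3 or 1956-1252 4-week replicate 3.

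Around the bounds, the genes just inside an age ratio of 4 in BRFM1218 were TRAVEDRAFT_51180 (4.00) and TRAVEDRAFT_107263 (4.09), and those just outside were TRAVEDRAFT_30802 (3.97) and TRAVEDRAFT_60757 (3.83). At the lower bound in 1956-1252 TRAVEDRAFT_53315 (0.805) was inside and TRAVEDRAFT_56391 (0.758) outside, and at the upper bound TRAVEDRAFT_55703 (1.24) was inside and TRAVEDRAFT_43473 (1.26) outside. A further 11 models met both ratios and the floor in BRFM1218 but stayed under the floor in 1956-1252. The values on either side of a bound are thus close, and 18 of the 34 genes met the criterion whichever single library was left out.

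Replicates of a group were close in most of the genes. The median coefficient of variation over the 34 genes was 10.2% in BRFM1218 at 2 weeks, 8.49% at 4 weeks, and 7.09% and 4.32% in 1956-1252. The highest was 62.9%, in TRAVEDRAFT_51180 in 1956-1252 at 2 weeks, and the same gene had the highest value at 4 weeks in either strain (55.2% in BRFM1218, 24.8% in 1956-1252). At 2 weeks in BRFM1218 the highest was 35.5%, in TRAVEDRAFT_53315.

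In 4 genes, TRAVEDRAFT_62539, TRAVEDRAFT_29201, TRAVEDRAFT_107263 and TRAVEDRAFT_51180, the same libraries stood apart. They were chosen after their values were seen, as the genes at least 0.2 on the log2 scale above the group mean in BRFM1218 4-week replicate 2 and at least 0.2 below it in 1956-1252 2-week replicate 3. They are 11.8% of the 34 genes, against 163 models or 1.94% at the floor. TRAVEDRAFT_29201 had 138, 170.0 and 126 CPM in BRFM1218 at 4 weeks and 26.9, 27.3 and 16.2 CPM in 1956-1252 at 2 weeks, and TRAVEDRAFT_51180 had the widest gap, with 5.18, 12.9 and 5.53 CPM and 188, 159.6 and 36.4 CPM. Taken singly, 5 of the 34 genes were that far above the mean in the first library (14.7%, against 7.14% at the floor) and 7 were that far below it in the second (20.6%, against 4.95%). Such excesses were not confined to these libraries. In BRFM1218 4-week replicate 3, 6 genes were that far below the mean (17.6%, against 8.53%). In BRFM1218 2-week replicates 1 and 3, 5 genes each were (14.7%, against 2.79 and 2.10%). Other shares were under those at the floor, as in BRFM1218 4-week replicate 1 above the mean (2.94%, against 3.68%). The 34 genes differ in level from the models at the floor, and what sets libraries apart in these genes was not tested.

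**Figure D4:**
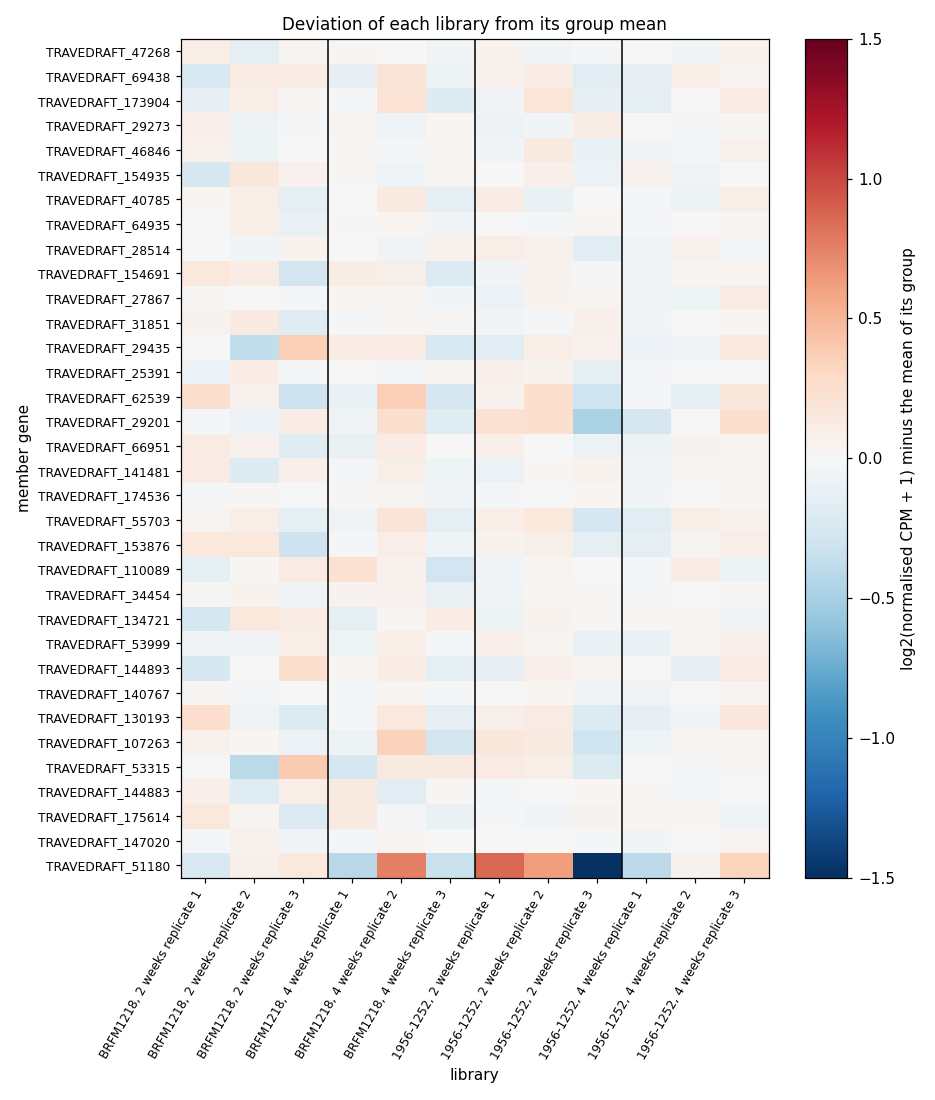
Log2 deviation of each library from the mean of its group for the 34 genes, drawn as colour with genes in rows and libraries in columns. Most deviations are close to 0. In BRFM1218 4-week replicate 2, 5 genes are at least 0.2 above the group mean, and in 1956-1252 2-week replicate 3, 7 are at least 0.2 below it. In BRFM1218, 6 are that far below it in 4-week replicate 3 and 5 each in 2-week replicates 1 and 3.

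Positions were taken only as the order of loci in the RefSeq gene table. It names no scaffold, so a new stretch of loci was taken to begin wherever the start position falls. The 34 genes lay on 15 of 171 such stretches, with at most 5 on 1 stretch, and none was directly next to another. The share of all loci on those 15 stretches is not given here, so nothing is read from that count. The closest pair was TRAVEDRAFT_53999 and TRAVEDRAFT_40785, with 1 locus between them. At 2 weeks TRAVEDRAFT_53999 was lower in BRFM1218 than in 1956-1252 and TRAVEDRAFT_40785 higher, and at 4 weeks both were higher in BRFM1218. TRAVEDRAFT_110089 and TRAVEDRAFT_140767 had 4 loci between them and TRAVEDRAFT_144883 and TRAVEDRAFT_144893 had 5. Among the 40 directly adjacent loci that met the level floor, 5 had an age ratio of 2 or more in BRFM1218 (12.5%, against 6.37% of all models at the floor) and 3 had one of 0.5 or less, with a median of 1.16.

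The adjacent loci named here were chosen after their values were seen. TRAVEDRAFT_81795, next to TRAVEDRAFT_174536, had 58.8, 69.2 and 66.2 CPM at 2 weeks and 411, 425 and 388 CPM at 4 weeks in BRFM1218 and 10.9, 11.9 and 11.8 CPM and then 15.9, 16.1 and 17.2 CPM in 1956-1252, age ratios of 6.27 and 1.44. TRAVEDRAFT_17788, next to TRAVEDRAFT_69438, had 4.82, 4.49 and 4.93 CPM and then 52.8, 53.2 and 58.9 CPM in BRFM1218 and means of 0.164 and 0.0925 CPM in 1956-1252, which is under the floor. TRAVEDRAFT_109036, next to TRAVEDRAFT_110089, had means of 3.65 ± 1.18 and 15.9 ± 2.61 CPM in BRFM1218 and of 13.5 ± 0.834 and 12.1 ± 0.432 CPM in 1956-1252. The means of all 3 in BRFM1218 were higher at 4 weeks, as were those of the genes beside them. TRAVEDRAFT_34454 had such a neighbour on either side, TRAVEDRAFT_69342 with means of 4.34 ± 0.290 and 13.5 ± 2.69 CPM in BRFM1218 and TRAVEDRAFT_112830 with 22.1 ± 2.34 and 46.2 ± 3.93 CPM. TRAVEDRAFT_138540, next to TRAVEDRAFT_25391, had means of 36.3 ± 2.78 and 126 ± 2.97 CPM in BRFM1218.

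Other neighbours went the opposite way. TRAVEDRAFT_71819, next to TRAVEDRAFT_47268, had 14.7, 15.4 and 14.8 CPM at 2 weeks and 4.72, 3.09 and 2.40 CPM at 4 weeks in BRFM1218. TRAVEDRAFT_52566, next to TRAVEDRAFT_154935, had 23.3, 26.6 and 19.6 CPM and then 0.992, 1.99 and 0.730 CPM. The 4-week libraries of both were below the 2-week libraries, the opposite of the genes beside them. TRAVEDRAFT_52566 had means of 1.42 and 2.71 CPM in 1956-1252, under the floor, and is not among the adjacent loci counted above. TRAVEDRAFT_166567, next to TRAVEDRAFT_28514, and TRAVEDRAFT_71323, next to TRAVEDRAFT_147020, are counted there, with age ratios of 0.436 and 0.363 in BRFM1218. No span of the 34 genes overlapped that of an adjacent locus in the table, and the sources used here do not say whether the counts used the strand of the reads.

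The genes with symbols in the table are mostly lignin-active oxidoreductases, and none of the 42 measured was among the 34 genes. The 34 are a small part of the 14296 models measured, so nothing is read from that count. The lists by symbol were lignin peroxidases (LiP), manganese peroxidases (MnP), versatile peroxidases (VP), laccases, dye-decolorizing peroxidases (DyP), haem-thiolate peroxidases (HTP), linoleate diol synthase-type genes (LDO), cytochrome c peroxidase and a Fet3-type multicopper oxidase. Of the 24 genes with a symbol at the floor, HTP2 and HTP3 had an age ratio of 4 or more in BRFM1218, 4.02 and 6.35. Over all models at the floor 1.01% had such a ratio. In 1956-1252 the ratios of HTP2 and HTP3 were 1.95 and 2.69, above the window. The highest ratio in BRFM1218 was 1.95 among 3 LiP genes at the floor, 2.32 among 6 MnP, 0.848 among 2 VP, 1.252 among 5 laccases and 2.46 among 2 LDO. It was 0.365 in the DyP gene at the floor, 0.496 in cytochrome c peroxidase and 0.671 in the Fet3-type gene. Of the 24 genes with a symbol at the floor, 8 lay within the 1956-1252 window, against 63.8% of all models at the floor. Near the 34 genes in the order of loci, TvLac5 and TvLac4 had 3 and 4 loci between them and TRAVEDRAFT_144883, with ratios of 0.778 and 0.300 in BRFM1218, and a versatile peroxidase gene, VP2, had 2 loci between it and TRAVEDRAFT_62539.

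The 51 other models with an age ratio of 4 or more in BRFM1218 had a median ratio of 6.17 there and of 1.61 in 1956-1252, where they ran from 0.184 to 7.04. At 2 weeks 35 of them were called higher in 1956-1252 and 10 higher in BRFM1218, and at 4 weeks 9 and 36. The 34 genes had 14 and 11 at 2 weeks and 5 and 27 at 4 weeks, and whether the 2 sets differ in this was not tested. The mirrored criterion, with the strains exchanged, chose 11 models, which had a median age ratio of 5.10 and a highest of 17.04 in 1956-1252. The 4-fold fall in BRFM1218 beside a level 1956-1252 chose 31 models.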

How the data were processed

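Mycelium of both strains was harvested after 2 or 4 weeks, total RNA was taken from 3 cultures per group, and libraries were sequenced on an Illumina HiSeq2000, per the labels' protocols and the series' design text. Per the file headers, the authors deposited for each gene model the counts of unique reads and of all reads and an RPKM value (reads scaled by model length and library size). Aligner, counting tool, build and use of strand are not given in the sources used here. Protein numbers were matched to RefSeq locus tags (assembly Trametes versicolor v1.0), which gave a tag to 14250 of 14296 models.

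Counts of all reads were tested with edgeR 4.0.16 in R 4.3.3 (filterByExpr, TMM factors of 0.819 to 0.846 in BRFM1218 and 1.18 to 1.23 in 1956-1252, 1 mean per group over 12 libraries, 8 residual degrees of freedom, quasi-likelihood tests, Benjamini-Hochberg adjustment over 12648 models). The fit was also run on simulated counts in which few genes differed between groups, unlike here. That run does not bear on the choice of scaling between strains. The filter removed 1648 models. The p-values set a difference of group means against the spread between cultures of the same group.

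The 34 genes and the lists by symbol were chosen with earlier results of these data known. The naming rule took the 10 largest age ratios, the 5 highest levels in BRFM1218 at 4 weeks, the 5 largest 4-week strain differences in each direction, those not called, genes with at most 2 loci between them, and genes at a bound. DESeq2 1.42.0, other scalings, filters, bounds, replicate blocks and left-out libraries were tried as alternatives. Protein and promoter features were not analysed here.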

Additional observations from a re-analysis of the deposited data

How the results depend on the processing

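Of the 34 genes, 28 were chosen again when normalised CPM entered the criterion, which then chose 32 models, and all 34 with unique reads. Those lost with normalised CPM were TRAVEDRAFT_27867, TRAVEDRAFT_29201, TRAVEDRAFT_29435, TRAVEDRAFT_53315, TRAVEDRAFT_69438 and TRAVEDRAFT_173904. An age ratio of 3 or more chose 64 models, 8 or more chose 10, and a window of 0.9 to 1/0.9 chose 14. Leaving out 1 library chose 28 to 36. The median 4-week level in BRFM1218 relative to 1956-1252 was 4.06 in unscaled CPM and 5.81 with normalised CPM. Genes called higher in 1956-1252 at 2 weeks went from 14 to 22 with library size alone and to 22 with upper-quartile scaling. These differences changed sign with library size alone: at 2 weeks TRAVEDRAFT_31851 (0.48), TRAVEDRAFT_64935 (0.042), TRAVEDRAFT_174536 (0.43), TRAVEDRAFT_154691 (0.13) and TRAVEDRAFT_27867 (0.069), and at 4 weeks TRAVEDRAFT_130193 (0.34) and TRAVEDRAFT_107263 (0.36). With upper quartiles TRAVEDRAFT_31851 (0.26) and TRAVEDRAFT_174536 (0.22) did so at 2 weeks. Each scaling moves all genes of a strain together. In the other settings run for single genes no difference changed sign. Between strains of an age, the deviations of libraries with the same replicate number had correlations from -0.152 to 0.0595 over 6 pairs. Pairing across the ages of a strain is not covered by these values. With a replicate block the calls were 14 and 11 at 2 weeks and 5 and 27 at 4 weeks, as without it. With 3 libraries per group no outlying library was tested for.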
